A study of Homo sapiens with 6 samples.

Results

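Integrins are paired receptors of the cell surface, each built from an alpha and a beta subunit, that hold cells to the extracellular matrix and pass signals through adaptor proteins to the actin cytoskeleton. Laminins are trimers of an alpha, a beta and a gamma chain and form the basement membrane together with nidogens and the heparan sulfate proteoglycans perlecan and agrin. Fibronectin, thrombospondins, tenascin, SPARC and fibrillins are further secreted proteins that bind integrins or shape how cells adhere. Epithelial cells and the carcinomas that arise from them commonly use laminin receptors such as ITGA3 with ITGB1, or ITGA6 with ITGB1 or ITGB4.

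The genes of these families were chosen by symbol: integrin alpha and beta subunits named by the numbers 1 to 11 or by V, E or L, all numbered laminin chains, and FN1, THBS1, THBS2, VTN, SPARC, TNC, NID1, NID2, HSPG2, AGRN, FBN1 and FBN2. The rule found 46 of the 42656 genes in the table. It takes in 14 integrin alpha subunits, 8 integrin beta subunits, 12 laminin chains and 12 other matrix genes, and it leaves out ITGA2B and the leukocyte subunits ITGAM, ITGAX and ITGAD.

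RNA was sequenced from TOV21G, an established line of ovarian clear cell carcinoma, on day 3 after lentiviral delivery of a short hairpin. The shMEX3A arm (3 libraries, genotype given as MEX3A knockdown) carried one hairpin against MEX3A, an RNA-binding ubiquitin ligase, and the shCtrl arm (3 libraries, genotype given as WT) carried one scrambled hairpin. The virus was used at a multiplicity of infection of 50 in both arms, and the medium held 15% serum. Nothing in the labels ties the 3 libraries to separate cultures, and the p-values then cover only library-to-library spread, which may be technical. With 1 hairpin per arm, loss of MEX3A and other effects of that hairpin cannot be told apart.

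Library totals ran from 34662635 to 48228216 reads. Levels below are counts per 1000000 reads after TMM scaling (CPM), fold changes are on the log2 scale as shMEX3A over shCtrl, and a gene is called where its adjusted p in edgeR's quasi-likelihood test is under 0.05. MEX3A had 19.6, 21.0 and 22.2 CPM in the shMEX3A libraries, against 68.8, 70.7 and 67.6 CPM in the shCtrl libraries (log2 fold change -1.72, SE 0.046, adjusted p = 1.52e-28). Of the markers of clear cell carcinoma that were looked up, PAX8 had 294 ± 5.20 CPM in shMEX3A and 192 ± 4.11 CPM in shCtrl (SD, n = 3 each), while NAPSA and SLPI stayed under 1 CPM in every library. Values are per bulk library, in which fewer cells of a type and less RNA per cell cannot be told apart.

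Of the 46 genes, 40 passed the low-count filter, and 36 of these were called, 21 higher and 15 lower in shMEX3A. Most genes of these cells moved: 69.7% of the 15679 tested genes were called, 34.0% higher and 35.6% lower. At least 10 CPM on average was reached by 27 of the 40 tested members and by 9614 of the 15679 tested genes. Of these 27 members 16 were higher and 9 lower. Among all genes of that level 79.2% were called, 37.2% higher and 42.0% lower. Over all 40 tested members the median log2 fold change was 0.22, beside -0.01 over all tested genes. At least 2-fold changes were called in 7 that rose and 4 that fell, where 6.95% of tested genes rose and 5.56% fell by that much. The 2 arms did not overlap in 36 of the 40, against 72.3% of all tested genes. Arms that stand apart, as given below for single genes, are thus the common case in these data. All 46 together took 1.35% to 1.36% of the reads in shMEX3A libraries and 1.13% to 1.17% in shCtrl libraries.

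**Figure D1:**
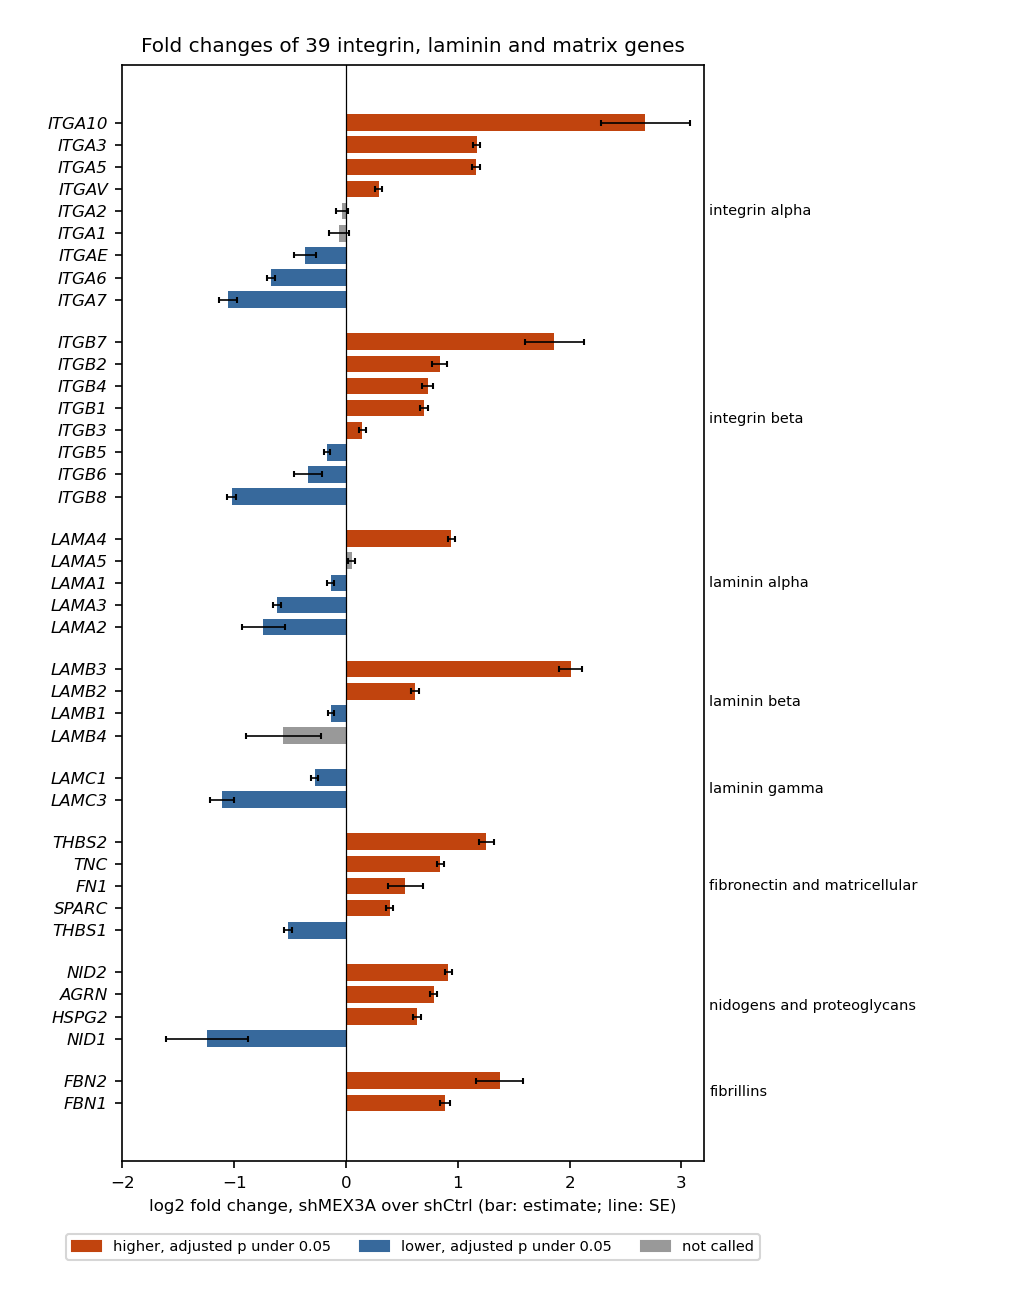
Log2 fold change of shMEX3A over shCtrl (x axis; bars give the estimate and lines its standard error, 3 libraries per arm) for 39 tested members, grouped by role on the y axis. Bars to the right rose and bars to the left fell in shMEX3A; ITGA10 at 2.68 and NID1 at -1.24 are the ends of the range, and among laminins LAMB3 lies at 2.01 and LAMC3 at -1.11.

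Of the 9 tested integrin alpha subunits 4 rose, 3 fell and 2 were not called. Over all tested genes 34.0% were higher and 35.6% lower, and the alpha subunits as a group lie near these shares. Among those that bind laminin, ITGA3 rose while ITGA6 and ITGA7 fell. ITGA3, the alpha subunit of a main epithelial laminin receptor, had 1733, 1759 and 1764 CPM in shMEX3A, against 774, 796 and 768 CPM in shCtrl (log2 fold change 1.17, SE 0.029, adjusted p = 2.16e-29, edgeR). ITGA6, which pairs with ITGB1 or with ITGB4 of hemidesmosomes, had 79.3, 81.4 and 80.0 CPM in shMEX3A, against 129.5, 126.8 and 126.9 CPM in shCtrl (-0.67, SE 0.034, adjusted p = 7.496e-20). ITGA7, best known as a laminin receptor of muscle, had 5.91, 6.03 and 6.67 CPM in shMEX3A, against 12.8, 12.5 and 13.2 CPM in shCtrl (-1.05, SE 0.080, adjusted p = 1.43e-14). For each of the 3 genes every shMEX3A library lay on one side of every shCtrl library, as for 72.3% of all tested genes. The level of ITGA3 per kilobase of exon was 14.6 ± 0.151 times that of ITGA6 in shMEX3A and 4.07 ± 0.107 times in shCtrl (SD, n = 3 each; two-sided exact permutation test, p = 0.1, the smallest that 3 against 3 allows). By the longest transcript it was 22.4 ± 0.232 times in shMEX3A and 6.26 ± 0.165 times in shCtrl.

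Both tested subunits that bind the RGD tripeptide rose. ITGA5, the alpha subunit of the classical fibronectin receptor, had 139.7, 133.4 and 139.4 CPM in shMEX3A, against 58.5, 62.5 and 63.1 CPM in shCtrl (log2 fold change 1.16, SE 0.037, adjusted p = 3.10e-26, edgeR). The arms of ITGA5 did not overlap. ITGAV, the shared alpha subunit of the vitronectin receptors, averaged 265 ± 5.42 CPM in shMEX3A and 216 ± 4.38 CPM in shCtrl (0.29, SE 0.030). ITGA8, which also binds this motif, had no read in any library, where 3 reads would be 0.0637 to 0.0885 CPM.

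Of the collagen-binding subunits, ITGA10 was called and ITGA1 and ITGA2 were not. ITGA10 was weak throughout, with 0.944, 0.573 and 0.974 CPM in shMEX3A, against 0.137, 0.0846 and 0.150 CPM in shCtrl. It rests on 39, 27 and 33 reads in shMEX3A and 6, 3 and 6 reads in shCtrl, so its fitted log2 fold change of 2.68 (SE 0.401, adjusted p = 2.45e-07) is loosely set. ITGA2, the main epithelial collagen receptor subunit, averaged 27.9 ± 1.29 CPM in shMEX3A and 28.5 ± 1.76 CPM in shCtrl (-0.04, SE 0.054, adjusted p = 0.561). ITGA1 averaged 7.02 ± 0.187 CPM in shMEX3A and 7.32 ± 0.447 CPM in shCtrl (-0.06, SE 0.088, adjusted p = 0.533), and the libraries of the arms overlapped for both genes. ITGAE, which pairs with ITGB7 on intraepithelial lymphocytes, had 4.97 ± 0.371 CPM in shMEX3A and 6.41 ± 0.347 CPM in shCtrl (-0.37, SE 0.098). ITGA4, ITGA9, ITGA11 and ITGAL were not tested: ITGA4 had no read, and the other 3 had 0 to 9 reads in a library.

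Among 8 beta subunits 5 rose and 3 fell, beside 34.0% of all tested genes higher and 35.6% lower. ITGB1, the most widely shared integrin subunit, had 2705, 2905 and 2730.5 CPM in shMEX3A, against 1769, 1709.7 and 1665 CPM in shCtrl (log2 fold change 0.70, SE 0.032, adjusted p = 5.14e-21, edgeR). It stood above every other integrin in both arms, with 463 ± 18.1 CPM per kilobase in shMEX3A and 285 ± 8.63 in shCtrl. ITGB4, the laminin receptor subunit of hemidesmosomes, averaged 41.4 ± 0.610 CPM in shMEX3A and 24.9 ± 1.01 CPM in shCtrl (0.73, SE 0.048). It moved opposite to ITGA6, its alpha partner.

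The subunits that pair with ITGAV apart from ITGB1 went separate ways. ITGB8, which presents latent TGF-beta for activation, had 50.7, 47.4 and 50.7 CPM in shMEX3A, against 96.1, 102.1 and 103.7 CPM in shCtrl (log2 fold change -1.02, SE 0.039, adjusted p = 1.37e-23, edgeR). ITGB6, also an activator of latent TGF-beta and an epithelial subunit, averaged 2.98 ± 0.028 CPM in shMEX3A and 3.77 ± 0.144 CPM in shCtrl (-0.34, SE 0.125, adjusted p = 0.0155), a call that DESeq2 did not make (adjusted p = 0.0576). Over 16 alternatives the adjusted p of ITGB6 ran from 0.0153 to 0.128. ITGB5 averaged 204 ± 1.24 CPM in shMEX3A and 229 ± 3.09 CPM in shCtrl (-0.17, SE 0.030), and ITGB3, a vitronectin receptor subunit, averaged 340.2 ± 0.512 CPM in shMEX3A and 307 ± 12.001 CPM in shCtrl (0.15, SE 0.031). Of the exon bases of ITGB3, 51.6% lie under exons of another gene in GENCODE 29, and for ITGB6 it is 20.6%. Summed per kilobase of exon, the 4 subunits came to 113 ± 0.174 CPM in shMEX3A and 113 ± 2.88 CPM in shCtrl. On these lengths the means lay closer than the spread between libraries (two-sided exact permutation test, p = 1). ITGB3 made up 68.6% of this sum in shMEX3A and 61.9% in shCtrl, and ITGB5 most of the rest. The sum was not tested with another length or without one, so a steady pool is not shown.

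ITGB2 and ITGB7 are best known from leukocytes. ITGB2 averaged 16.9 ± 0.384 CPM in shMEX3A and 9.46 ± 0.1999 CPM in shCtrl (log2 fold change 0.84, SE 0.068). ITGB7 had 1.89, 1.23 and 1.59 CPM in shMEX3A, against 0.389, 0.423 and 0.474 CPM in shCtrl (1.86, SE 0.263, adjusted p = 7.88e-08, edgeR). Both parted the arms. Exons of ZNF740 cover 42.1% of the exon bases of ITGB7, and ZNF740 itself had a log2 fold change of -0.05 (adjusted p = 0.349). Of 10 leukocyte markers 9 stayed under 1 CPM in every library, 4 of them (CD3E, CD3D, MS4A1 and TYROBP) had no read, and the defining PTPRC averaged 0.0222 CPM in shMEX3A and 0.0188 CPM in shCtrl. The list summed to 8.62 to 9.02 CPM in shMEX3A and 7.11 to 8.21 CPM in shCtrl, nearly all of it CD68.

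**Figure D2:**
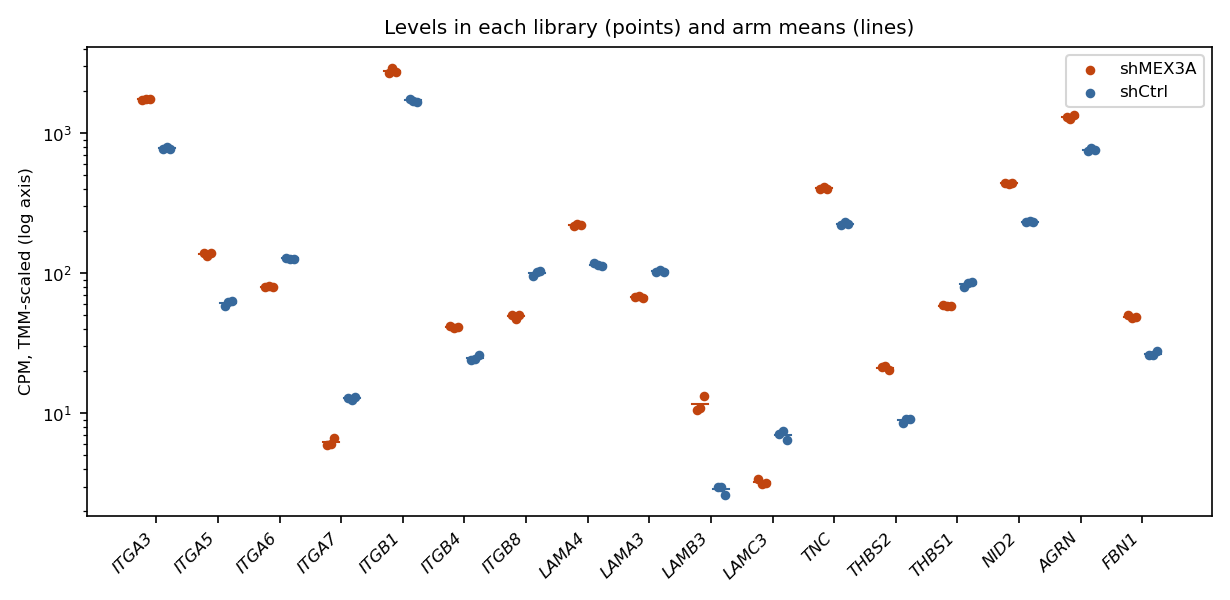
Level in CPM on a log axis (y axis) of 17 members (x axis) in each of the 3 shMEX3A and 3 shCtrl libraries (points), with the mean of each arm (lines). Only called members are shown, and the points of the arms stand apart for each, as they do in 72.3% of all tested genes. LAMB3 has the widest gap among those shown, with 10.6 to 13.3 CPM in shMEX3A and 2.62 to 3.00 CPM in shCtrl.

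The make-up of the integrin pool shifted with these changes. ITGA3 made up 72.3% ± 0.465 of all integrin alpha CPM per kilobase in shMEX3A and 56.6% ± 0.813 in shCtrl, while ITGA6 made up 4.97% ± 0.073 and ITGAV 13.05% ± 0.288 in shMEX3A, against 13.9% ± 0.239 and 18.7% ± 0.469 in shCtrl (SD, n = 3 each). ITGB1 made up 79.1% ± 0.671 of the beta subunits in shMEX3A and 70.7% ± 1.14 in shCtrl. Each of these shares parted the arms completely (two-sided exact permutation tests, p = 0.1 each, the smallest possible). The alpha subunits summed to 247 ± 1.43 CPM per kilobase in shMEX3A and 141 ± 0.848 in shCtrl, and the beta subunits to 584 ± 17.9 in shMEX3A and 403 ± 5.70 in shCtrl. Per-kilobase levels divide by all exon bases a gene has in GENCODE 29 and so depend on which of its transcripts the cells make.

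Laminin chains fell more often than they rose, with 3 of 12 higher and 7 lower, beside the 34.0% and 35.6% of all tested genes. The median log2 fold change of the 12 was -0.21. Of the gamma chains LAMC1 and LAMC3 are described here, and both fell. LAMC1, the gamma chain of most laminins, averaged 2411 ± 31.2 CPM in shMEX3A and 2927 ± 44.8 CPM in shCtrl (-0.28, SE 0.029). LAMC3 had 3.41, 3.14 and 3.16 CPM in shMEX3A, against 7.07, 7.503 and 6.43 CPM in shCtrl (-1.11, SE 0.106, adjusted p = 7.88e-12, edgeR). The arms did not overlap for LAMC1 or LAMC3.

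LAMA3 and LAMB3 are the alpha and the beta chain of the epithelial laminin of hemidesmosomes, and they went in opposite directions. LAMA3 had 67.2, 68.98 and 66.1 CPM in shMEX3A, against 102.8, 104.8 and 102.5 CPM in shCtrl (log2 fold change -0.62, SE 0.036, adjusted p = 4.84e-18, edgeR). LAMB3 had 10.6, 10.98 and 13.3 CPM in shMEX3A, against 3.00, 2.99 and 2.62 CPM in shCtrl (2.01, SE 0.104, adjusted p = 2.20e-19). LAMB3 thus rose 4.03-fold, while LAMA3 fell. LAMB3 was nonetheless the scarcer of this pair in both arms. Per kilobase, LAMA3 stood at 1.88 ± 0.246 times LAMB3 in shMEX3A and 11.6 ± 0.829 times in shCtrl (two-sided exact permutation test, p = 0.1, the smallest possible). Among chains of its own kind LAMA3 made up 5.65% ± 0.122 in shMEX3A and 8.96% ± 0.119 in shCtrl, and LAMB3 2.12% ± 0.275 in shMEX3A and 0.520% ± 0.044 in shCtrl (p = 0.1 each, same exact test). Gene-level counts do not separate the transcripts of LAMA3.

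The other alpha chains included the second large rise among laminins. LAMA4, a chain of vascular and mesenchymal basement membranes, had 218, 224 and 221 CPM in shMEX3A, against 119, 114 and 112 CPM in shCtrl (log2 fold change 0.94, SE 0.032, adjusted p = 3.19e-25, edgeR). Its share of laminin alpha chains was 23.5% ± 0.432 in shMEX3A and 12.7% ± 0.542 in shCtrl. LAMA1, the alpha chain of early embryonic laminin and the most abundant alpha chain here, averaged 692 ± 9.05 CPM in shMEX3A and 762 ± 19.8 CPM in shCtrl (-0.14, SE 0.029). LAMA2, known from muscle, averaged 1.10 ± 0.118 CPM in shMEX3A and 1.84 ± 0.061 CPM in shCtrl (-0.74, SE 0.196). LAMA5, a widespread chain of adult epithelial basement membranes, averaged 198 ± 1.98 CPM in shMEX3A and 191.5 ± 5.66 CPM in shCtrl and was not called (0.05, SE 0.031, adjusted p = 0.145). Beside LAMA4, endothelial markers summed to 10.1 to 11.3 CPM in shMEX3A and 5.46 to 5.56 CPM in shCtrl. Of these, 9 of 10 were under 1 CPM in every library, and KDR, CLDN5 and EMCN had no read. TIE1 gave most of the sum and was called higher (1.15), as was CDH5 (3.29). ERG was called lower (-1.49), PECAM1 was not called and 6 were too low to test. The part of such cells in the result was not tested.

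Of the remaining beta chains LAMB2 rose and LAMB1 fell slightly. LAMB1, the main beta chain here, had 772, 789 and 763 CPM in shMEX3A, against 833, 862 and 860.2 CPM in shCtrl (log2 fold change -0.14, SE 0.029, adjusted p = 8.35e-05, edgeR). LAMB2, the beta chain of synaptic and glomerular basement membranes, averaged 132 ± 4.14 CPM in shMEX3A and 85.7 ± 0.585 CPM in shCtrl (0.62, SE 0.034). LAMB4 was barely expressed, at 0.373 ± 0.044 CPM in shMEX3A and 0.558 ± 0.088 CPM in shCtrl (-0.56, SE 0.335, adjusted p = 0.134). Summed over the beta chains the arms overlapped, with 117 ± 1.68 CPM per kilobase in shMEX3A and 118 ± 1.93 in shCtrl (two-sided exact permutation test, p = 0.7). The alpha chains summed to 81.3 ± 0.452 in shMEX3A and 78.6 ± 1.26 in shCtrl (p = 0.1, same exact test).

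**Figure D3:**
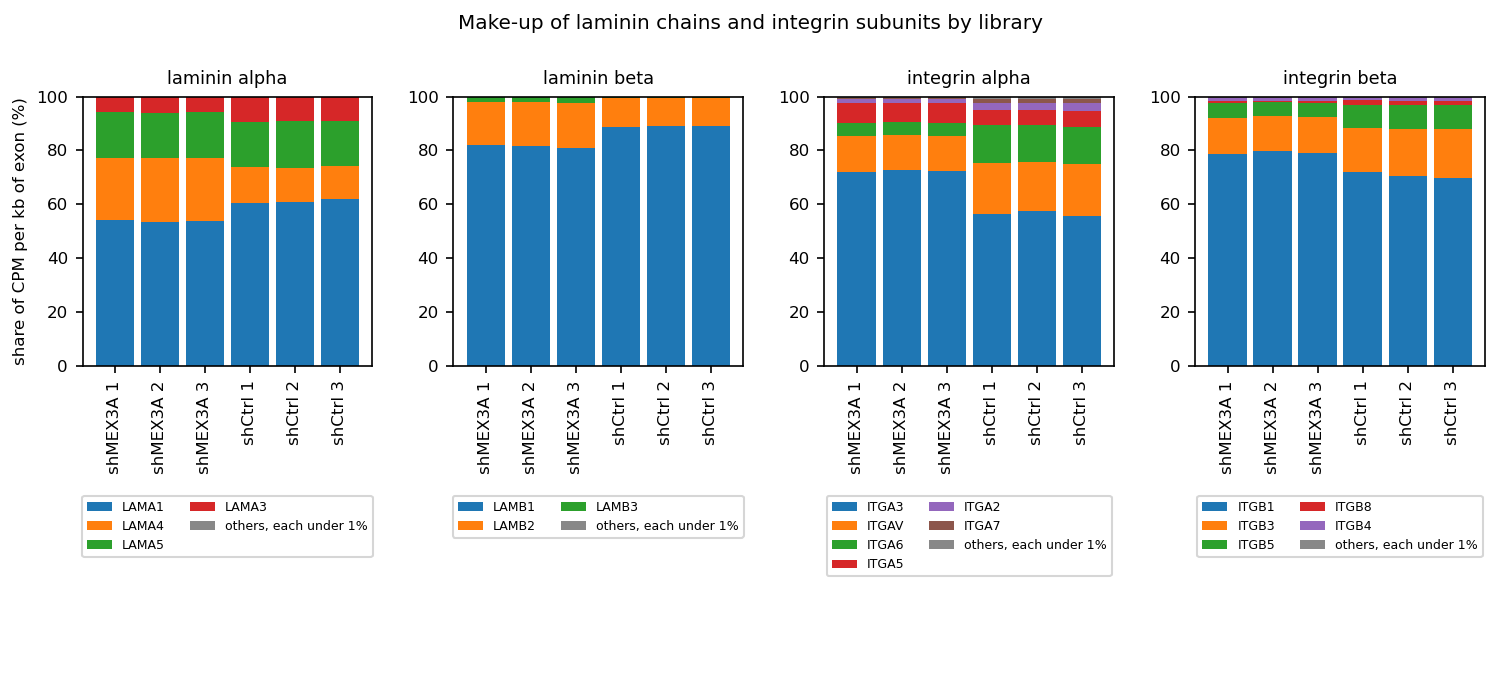
Share in percent (y axis) of each chain or subunit in the summed CPM per kilobase of its kind, in the 3 shMEX3A and 3 shCtrl libraries (bars); genes under 1% in every library are pooled in grey. LAMA4 takes a larger part of the alpha chains in shMEX3A (23.5%) than in shCtrl (12.7%), as do LAMB2 (16.4% and 10.6%) and ITGA3 (72.3% and 56.6%) in their kinds.

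Promoter windows are shown for both subunits of the fibronectin receptor, ITGA5 and ITGB1, which rose together, and for LAMA3 and LAMB3, chains of one trimer that moved apart. Each runs from 250 bases before to 50 after the RefSeq start (GRCh38.p14), 5′ to 3′ on the gene's strand, and capitals mark matches to 3 motifs: the AP-1 element TGAGTCA, which reads TGACTCA on the other strand, the TEAD element GGAATG, which reads CATTCC there, and the GC box GGGCGG, which reads CCGCCC there. Those of LAMA3 and ITGB1 lie inside the span of the GENCODE gene rather than at its 5′ end.
ITGA5, chr12:54419217-54419516, minus strand: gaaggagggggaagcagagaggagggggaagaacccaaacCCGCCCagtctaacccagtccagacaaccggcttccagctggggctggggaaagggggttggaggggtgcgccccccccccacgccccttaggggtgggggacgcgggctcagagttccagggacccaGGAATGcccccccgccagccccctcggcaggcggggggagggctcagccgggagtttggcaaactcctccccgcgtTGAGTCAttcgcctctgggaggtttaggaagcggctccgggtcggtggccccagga
ITGB1, chr10:32958181-32958480, minus strand: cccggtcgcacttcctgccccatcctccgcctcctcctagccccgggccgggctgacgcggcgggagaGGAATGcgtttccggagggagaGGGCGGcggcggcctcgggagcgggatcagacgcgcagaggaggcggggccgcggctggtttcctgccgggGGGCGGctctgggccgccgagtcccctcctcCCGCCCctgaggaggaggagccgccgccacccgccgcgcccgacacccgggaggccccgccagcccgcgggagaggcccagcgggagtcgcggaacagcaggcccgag
LAMA3, chr18:23872770-23873069, plus strand: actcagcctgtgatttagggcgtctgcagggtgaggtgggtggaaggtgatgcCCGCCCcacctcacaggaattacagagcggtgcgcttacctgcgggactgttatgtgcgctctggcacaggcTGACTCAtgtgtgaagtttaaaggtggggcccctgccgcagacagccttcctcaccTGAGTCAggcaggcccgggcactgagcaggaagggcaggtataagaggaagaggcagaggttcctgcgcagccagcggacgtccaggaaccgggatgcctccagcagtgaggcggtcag
LAMB3, chr1:209652376-209652675, minus strand: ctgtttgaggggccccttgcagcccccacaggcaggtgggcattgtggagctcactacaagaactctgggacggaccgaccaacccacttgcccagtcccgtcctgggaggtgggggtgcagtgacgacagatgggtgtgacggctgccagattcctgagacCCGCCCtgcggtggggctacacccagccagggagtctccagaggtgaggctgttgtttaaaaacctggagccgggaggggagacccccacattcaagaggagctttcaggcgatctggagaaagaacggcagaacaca
Of the 46 members 35 had a window. The AP-1 element was found in 2 of these 35, ITGA5 with one match and LAMA3 with a match on each strand, beside 4.95% of 35116 windows of all genes. ITGA5 rose and LAMA3 fell. The TEAD element lay in 9 of the 35, ITGA5 and ITGB1 among them, beside 14% of all windows, and the GC box in 20 of the 35, all 4 printed windows included, beside 45%. TATAAA on the gene's strand was found in 1, THBS2, beside 7.33%. A match is a run of letters and not a shown binding site.

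The matrix genes outside the laminins mostly rose, with 9 of 11 tested higher and 2 lower (median log2 fold change 0.78), beside 34.0% and 35.6% of all tested genes. TNC, tenascin-C, a matricellular protein of wounds and tumour stroma, had 403, 412 and 401 CPM in shMEX3A, against 219, 232 and 226 CPM in shCtrl (0.84, SE 0.030, adjusted p = 1.55e-24, edgeR). THBS2, an anti-angiogenic thrombospondin, had 21.6, 21.7 and 20.3 CPM in shMEX3A, against 8.58, 9.08 and 9.10 CPM in shCtrl (1.25, SE 0.067, adjusted p = 3.66e-19). THBS1, its closest relative and an activator of latent TGF-beta, went the other way, with 58.9, 58.0 and 58.8 CPM in shMEX3A, against 79.7, 85.7 and 86.8 CPM in shCtrl (-0.52, SE 0.038, adjusted p = 5.69e-15). The 2 thrombospondins thus changed in opposite directions, each with its arms apart. SPARC, a collagen-binding matricellular protein, averaged 455 ± 6.75 CPM in shMEX3A and 347 ± 4.48 CPM in shCtrl (0.39, SE 0.029).

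Fibronectin was scarce in these cells. FN1, the ligand of the receptor formed by ITGA5 and ITGB1, had 5.42, 4.71 and 5.84 CPM in shMEX3A, against 4.78, 2.85 and 3.27 CPM in shCtrl (log2 fold change 0.53, SE 0.157, adjusted p = 0.00701, edgeR). It was called higher although the lowest shMEX3A library lay below the highest shCtrl library. VTN, vitronectin, was not tested, with 0 to 8 reads in a library.

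Of the 4 nidogen and proteoglycan genes 3 rose and 1 fell, beside 34.0% of all tested genes higher and 35.6% lower. NID2, nidogen-2, which links laminin to type IV collagen, had 442, 435 and 439 CPM in shMEX3A, against 231, 235 and 232 CPM in shCtrl (log2 fold change 0.92, SE 0.029, adjusted p = 3.91e-26, edgeR). NID1, nidogen-1, was near absent, with 0.315, 0.467 and 0.0885 CPM in shMEX3A, against 0.778, 0.592 and 0.798 CPM in shCtrl (-1.24, SE 0.366, adjusted p = 0.00307), and rested on 13, 22 and 3 reads in shMEX3A. AGRN, agrin, averaged 1308 ± 33.9 CPM in shMEX3A and 759.7 ± 19.01 CPM in shCtrl (0.78, SE 0.030), and HSPG2, perlecan, averaged 537 ± 10.4 CPM in shMEX3A and 346 ± 18.2 CPM in shCtrl (0.64, SE 0.033). Exons of RTRAF cover 30.0% of the exon bases of NID2, and RTRAF was lower in shMEX3A (-0.14, adjusted p = 0.00271). Both fibrillins, which build microfibrils, rose. FBN1 had 50.3, 47.8 and 49.0 CPM in shMEX3A, against 26.1, 26.0 and 27.7 CPM in shCtrl (0.88, SE 0.046, adjusted p = 1.95e-19). FBN2 had 2.11, 2.06 and 1.95 CPM in shMEX3A, against 0.915, 0.592 and 0.823 CPM in shCtrl (1.38, SE 0.210, adjusted p = 3.55e-07), so neither fibrillin had overlapping arms.

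Of 10 markers of fibroblasts, cells that make much of this matrix in tissue, 4 were called higher (MFAP5, DCN, PDPN and COL6A3), THY1 was not called and 5 were too low to test. The 10 summed to 58.1 to 61.1 CPM in shMEX3A and 48.0 to 49.7 CPM in shCtrl, 6 of them stayed under 1 CPM in every library, and PDGFRB averaged 0.120 CPM in shMEX3A and 0.147 CPM in shCtrl. Most of the sum was MFAP5, with 46.4 ± 0.676 CPM in shMEX3A and 41.04 ± 0.887 CPM in shCtrl (log2 fold change 0.18). DCN averaged 9.07 ± 0.861 CPM in shMEX3A and 4.86 ± 0.193 CPM in shCtrl. Their part in the rise of the matrix genes was not tested.

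**Figure D4:**
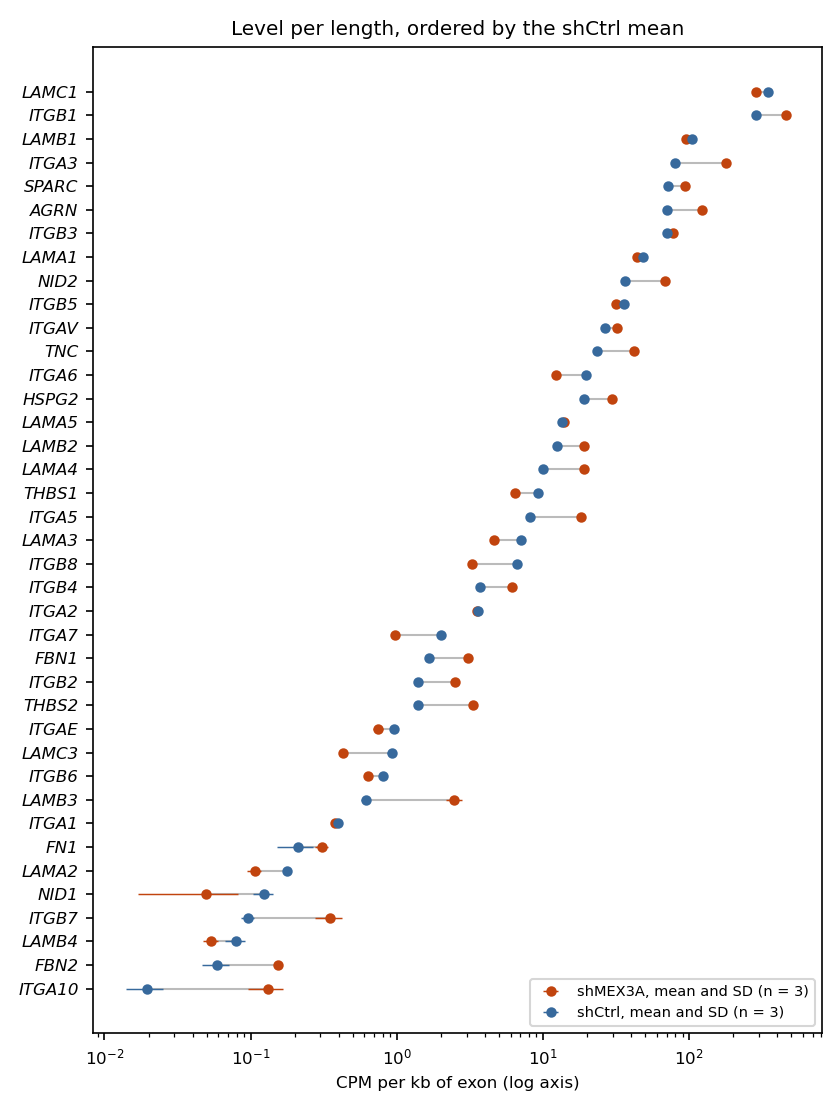
Mean level in CPM per kilobase of exon on a log axis (x axis; lines give the SD, n = 3 libraries per arm) of 39 tested members, ordered down the page by their shCtrl mean. LAMC1 and ITGB1 have the highest levels in both arms, with ITGB1 at 463 and LAMC1 at 287 in shMEX3A, and ITGB1 at 285 and LAMC1 at 348 in shCtrl; their order in shCtrl depends on the length used.

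On exon-union lengths, members with high levels per kilobase were ITGB1 (463 ± 18.1), LAMC1 (287 ± 3.71), ITGA3 (179 ± 1.70), AGRN (122 ± 3.15), LAMB1 (95.2 ± 1.58) and SPARC (94.2 ± 1.40) in shMEX3A. In shCtrl they were LAMC1 (348 ± 5.33), ITGB1 (285 ± 8.63), LAMB1 (105 ± 1.98), ITGA3 (79.5 ± 1.55), SPARC (71.9 ± 0.927), AGRN (70.6 ± 1.77) and ITGB3 (70.0 ± 2.73). The order depends on the length used. Per kilobase of the longest transcript, ITGB1 stood above LAMC1 in both arms, with 735 ± 28.8 against 306 ± 3.96 CPM in shMEX3A and 453 ± 13.7 against 371 ± 5.68 CPM in shCtrl.

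Genes on a list of adhesion adaptors were called higher more often than lower. Besides proteins that couple integrins to actin, the list holds kinases such as SRC and PTK2, both higher. It also holds the integrin regulators ITGB1BP1 and SHARPIN, both lower. Of 31 tested adaptor genes 22 were higher and 8 lower, with a median log2 fold change of 0.31. The 3 higher ones with the smallest p were ACTN1, an actin crosslinker (1.23, SE 0.030), ZYX, zyxin (1.15, SE 0.034), and TLN1, the talin that activates integrins (0.82, SE 0.030). The 3 lower ones were RSU1 (-0.46, SE 0.033), KANK1 (-0.45, SE 0.039) and TLN2 (-0.44, SE 0.044), so the talin paralogs differed in direction. Of 14 other matrix receptors 8 were higher and 4 lower (median 0.23). DDR1, a collagen-binding kinase (0.98, SE 0.035), LRP1 (0.57, SE 0.031) and the laminin receptor DAG1 (0.39, SE 0.029) led the first, and CD151, a tetraspanin that associates with ITGA3 (-0.45, SE 0.035), CD47 (-0.53, SE 0.044) and SDC2 (-0.44, SE 0.041) the second. Of 28 tested matrix glycoproteins outside the 46, 15 were higher and 10 lower (median 0.23), among them SMOC1 (4.25, SE 0.129), LTBP4 (0.89, SE 0.034) and CCN1 (0.76, SE 0.030), and on the other side FREM2 (-1.06, SE 0.041), CCN3 (-1.07, SE 0.045) and NPNT (-0.53, SE 0.030), a ligand of ITGA8, which had no read. Over all tested genes the shares were 34.0% higher and 35.6% lower.

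GC content moved with the fold changes over all genes, and several members are GC-rich. The median log2 fold change was -0.12 over the 3620 tested genes with the lowest GC content and 0.14 over the 3620 with the highest. Those with the highest held 11 members with a median of 0.73, and those with the lowest held 7 with a median of -0.04. The 3620 genes from 42.2% to 48.7% GC held 9 members (median -0.28), and the 3620 from 48.7% to 56.7% held 13 (median -0.14). The members' median was thus positive only among the genes with the highest GC content. Whether GC content has a part in the members' changes was not tested beyond a fit with offsets for GC content and transcript length, in which 35 of the 36 calls were kept. HSPG2 then had a log2 fold change of 0.25, LAMB2 0.35, ITGB4 0.45, AGRN 0.51 and ITGA3 0.89, while ITGB1 had 0.86. Among small changes ITGB3 had 0.08, LAMA1 -0.25 and ITGB5 -0.30 under the offsets. LAMA5 was called lower under the offsets (-0.28, adjusted p = 2.79e-12) and ITGB6 lost its call (-0.22, adjusted p = 0.112).

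**Figure D5:**
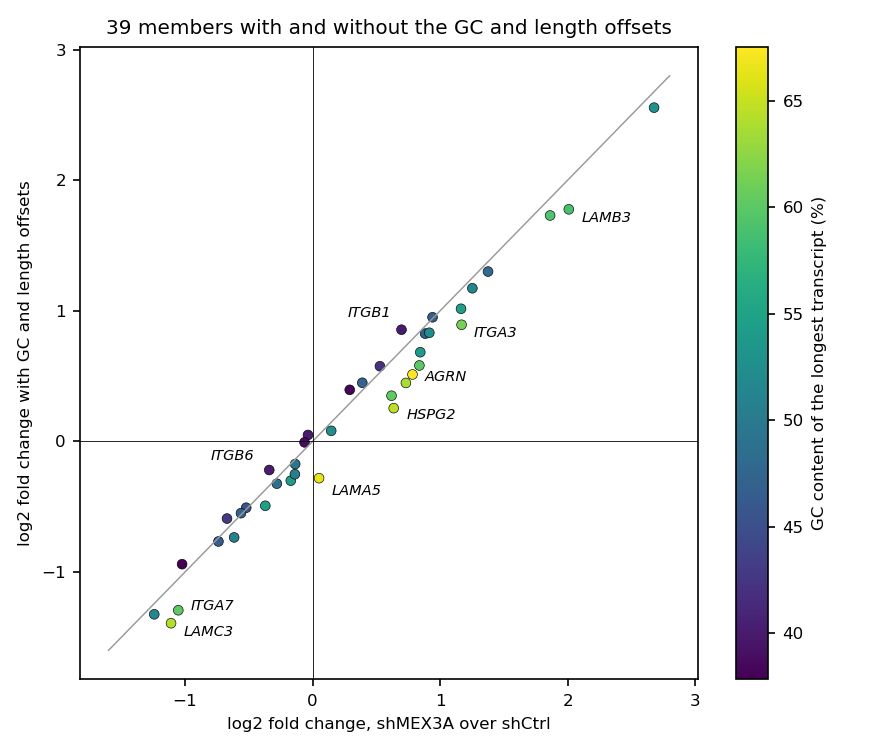
Log2 fold change of 39 tested members with the GC and length offsets (y axis) against that without them (x axis), coloured by the GC content in percent of the longest transcript; the grey line marks equal values. GC-rich genes such as HSPG2 (0.64 without and 0.25 with offsets) and LAMA5 (0.05 and -0.28) lie below the line, and ITGB1 (0.70 and 0.86) lies above it.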

How the data were processed

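RNA libraries of 6 samples of TOV21G cells were analysed. The authors deposited raw read counts per gene, one column per library. The submitters' processing notes list HTSeq 2.0.4, STAR, fastp 0.20.0, edgeR 4.0.16 and the build GRCh38, without saying what each did. Whether counting used strand, and with which annotation release, is not given in the sources used here. Where exons of 2 genes overlap, antisense ones too, their reads cannot be separated.

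All 42656 genes entered one fit in edgeR 4.0.16 (R 4.3.3): filterByExpr (15679 genes kept), TMM scaling, robust quasi-likelihood test, Benjamini-Hochberg adjustment over all tested genes. TMM takes most genes as unchanged, so changes are relative. Standard errors come from the F statistic. Lengths, GC content, overlaps and coordinates are from GENCODE 29 (GRCh38), promoters from RefSeq. Alternatives used DESeq2 1.42.0 and limma 3.58.1. The fit was also run on simulated counts in which few genes were changed. Those counts do not show how it behaves where most genes are called, as here.

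The members and gene lists were chosen with earlier results of these data known. Of 40 tested members 39 are named, and 1 is not reported here. Those called at least 2-fold and the smallest p in each direction per role are given library by library. The other lists give the 3 smallest p in each direction. FN1's libraries, the marker genes and the overlap partners were singled out after their values were seen. Chi-square over degrees of freedom between libraries of the same arm was 2.69 to 6.15, and none was treated as a duplicate.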

Additional observations from a re-analysis of the deposited data

How the results depend on the processing

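The members' counts stayed at 20 to 22 higher and 14 to 15 lower over all 16 alternatives, and those of all genes at 4969 to 5454 higher and 5071 to 5877 lower. MEX3A ran from -1.68 to -1.87 in log2 fold change. LAMA5 turned with GC and length offsets (-0.28, and -0.28 with the replicate block added, where the adjusted p was 1.73e-09) and was called higher on the genes with a GC value without offsets (0.07, edgeR adjusted p = 0.0394), a setting added once the data had been seen. It was not called in the other 13 alternatives, and the cause was not tested. ITGB6 lost its call in 3, by DESeq2's Wald test (-0.33, adjusted p = 0.0576) and under the offsets without and with the replicate block (-0.22 each, adjusted p = 0.112 and 0.128). The filter of at least 1 CPM left out ITGA10, NID1 and LAMB4. Leaving out each library in turn kept all 36 calls of members.

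The replicate number did not pair the libraries: deviations of same-numbered libraries correlated between -0.077 and 0.077. Adding the replicate block gave 5247 higher and 5504 lower genes, with 36 of 36 calls of members kept.

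In shCtrl, ITGB1 minus LAMC1 in CPM per kilobase was -63.02 by exon union and 82.03 by the longest transcript, a setting also added once the data had been seen; the length used makes this difference. As differences in percentage points (shMEX3A minus shCtrl), the share of LAMA3 was -3.31 per kilobase, -3.09 from raw counts and -3.15 with the longest transcript. The share of LAMB3 was 1.60, 0.960 and 1.28, in the same order. Without one library each, these shares ran from -3.38 to -3.25 and from 1.44 to 1.68.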
